A study of Mus musculus with 15 samples.

Results

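The genes described here are 10 acute-phase proteins of the liver, Saa1, Saa2, Saa3, Saa4, Orm1, Orm2, Orm3, Lcn2, Hp and Apcs. The rule lists them by symbol, as secreted proteins that hepatocytes make in inflammation, and uses no measured value, though the list was drawn up with earlier results of these data known. All 10 of 10 were matched among the 55450 Ensembl genes of the count table and passed the low-count filter that kept 15808 genes. The mRNA of whole liver was read in 15 female C57BL/6 mice (5 Adult, 5 Old and 5 PDX) and each library holds the RNA of a single animal. The Adult mice (A1 to A5, 6 months of age) and the Old mice (O1 to O5, 22 months of age) received corn oil as vehicle by daily gavage. The PDX mice (P1 to P5) were also 22 months of age and received protectin DX, a lipid mediator made from docosahexaenoic acid, in corn oil at 30 ng per g of body weight. The sample labels give 9 weeks of gavage. Ages are those at the start of the study.

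The acute-phase response is the change in the set of proteins that hepatocytes secrete when tissue is injured or infected. Cytokines of the interleukin-6 family act through STAT3, and interleukin-1 and tumor necrosis factor act through NF-kB and C/EBP factors, to raise transcription of positive acute-phase genes. Serum amyloid A proteins travel on high-density lipoprotein, orosomucoids are carriers of small lipophilic molecules, lipocalin 2 binds bacterial siderophores and so withholds iron, haptoglobin binds free hemoglobin, and serum amyloid P component, the product of Apcs, is the pentraxin that serves as a main acute-phase reactant of mice. Several of these genes are also used outside hepatocytes. Saa3 is known from macrophages and adipose tissue, and lipocalin 2 is stored in neutrophil granules.

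The libraries held between 22424400 and 36070800 counted read pairs per mouse (to 6 digits). Levels are CPM, counts relative to the library total, and scaled with TMM factors. Differences are log2 fold changes from edgeR's quasi-likelihood fit of all 15 mice, with standard errors (SE) computed from that fit. The p-values are those of edgeR's quasi-likelihood test, adjusted over all genes tested by the Benjamini-Hochberg method, with a threshold of 0.05. All 8 hepatocyte markers listed were detected in every group, and their summed level lay between 53627 and 211827 CPM, with the lowest sum in O5 and the next lowest, 79376 CPM, in O2. These are values of whole liver tissue, so fewer cells of a type and less RNA per cell cannot be told apart. O2 and O5 were also left out together as an alternative.

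Between Old and Adult livers, 5 of the 10 genes rose past the threshold and 0 fell, against 4.59% of all genes that rose and 2.04% that fell. Lcn2 rose most, with a log2 fold change of 4.74, followed by Orm2, Saa3, Apcs and Hp. The median log2 fold change of the 10 genes was 2.36, beside 0.07 over all genes tested. In 6 of the 10 genes every Old mouse lay above every Adult mouse, which held for 3.65% of all genes. Those genes were Saa3, Orm1, Orm2, Lcn2, Hp and Apcs. Between PDX and Old livers no gene of the 10 passed the threshold.

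**Figure D1:**
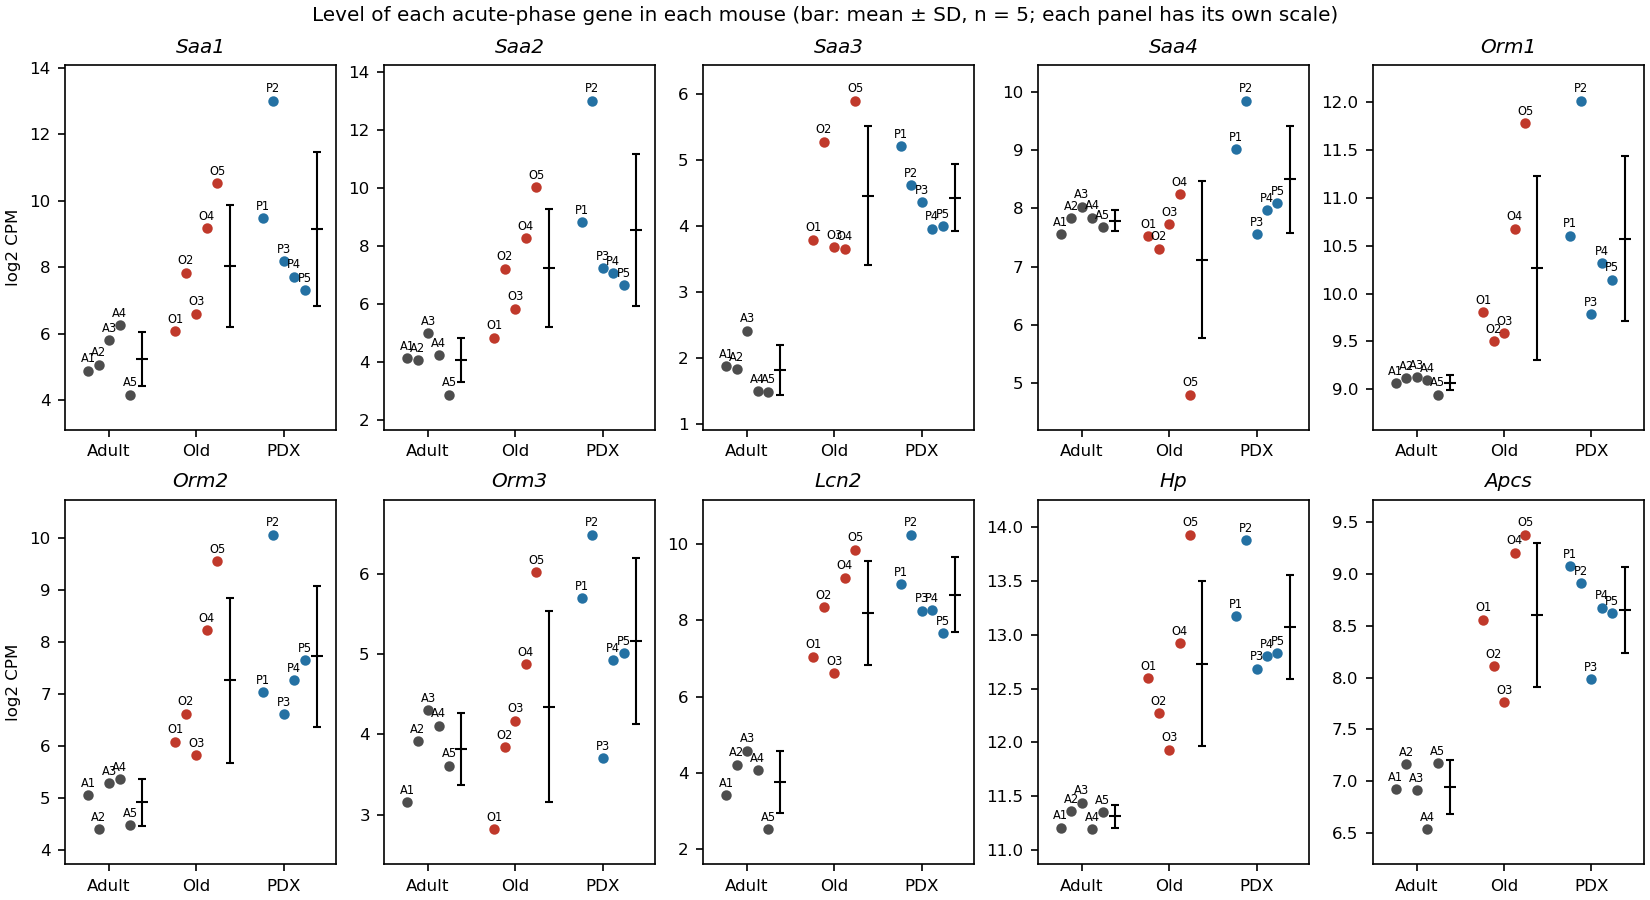
Level of the 10 acute-phase genes in each mouse, as log2 CPM on the vertical axis with a separate scale for each gene, with the mean and SD of the 5 mice of a group beside the points. O5 was the highest Old mouse for 9 genes and the lowest for Saa4, and P2 was the highest PDX mouse for 8 genes.

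Saa1 and Saa2, the circulating acute-phase serum amyloid A genes, lie next to each other on chromosome 7 in opposite orientation. Saa1 (ENSMUSG00000074115) spans chr7:46740497-46742980 on the minus strand and Saa2 (ENSMUSG00000057465) spans chr7:46751790-46754313 on the plus strand of GRCm38, the assembly of mm10. The level of Saa1 was 29.5, 33.3, 55.7, 76.4 and 17.8 CPM in A1 to A5, 66.9, 228, 97.1, 578 and 1475 CPM in O1 to O5, and 715, 8325, 289, 210.4 and 158 CPM in P1 to P5. Only O1 among the Old mice lay within the Adult range, every PDX mouse lay above it, and P2 stood far above all the others. The level of Saa2 was 17.4, 16.6, 31.4, 18.7 and 7.20 CPM in A1 to A5, 28.3, 148, 56.9, 306 and 1047 CPM in O1 to O5, and 450.4, 8308, 149.7, 132 and 100.2 CPM in P1 to P5. The order of the mice was close to that of Saa1, with O1 again inside the Adult range.

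The log2 fold change between Old and Adult was 3.52 (SE 1.06, edgeR adjusted p = 0.0734) for Saa1 and 4.12 (SE 1.17, edgeR adjusted p = 0.0688) for Saa2, so neither passed the threshold. Without P2, which takes no part in that comparison but enters the shared estimate of the spread, both passed, with edgeR adjusted p-values of 0.0356 for Saa1 and 0.0296 for Saa2. Without O5 the log2 fold changes were smaller, 2.51 (edgeR adjusted p = 0.132) for Saa1 and 2.89 (edgeR adjusted p = 0.122) for Saa2. Saa2 also passed without O1 (edgeR adjusted p = 0.0494) or without O3 (edgeR adjusted p = 0.0488). Between PDX and Adult, Saa1 rose by a log2 fold change of 5.51 (SE 1.06, edgeR adjusted p = 0.0325) and Saa2 by 6.65 (SE 1.17, edgeR adjusted p = 0.0299). Those values rested in large part on P2, since without it the log2 fold changes between PDX and Adult were 3.01 for Saa1 and 3.51 for Saa2, with edgeR adjusted p-values of 0.0978 and 0.0738. The calls were also lost without any one Adult mouse, where the edgeR adjusted p lay between 0.0782 and 0.0956 for Saa1 and between 0.0716 and 0.0834 for Saa2, and that of Saa1 without P1 (edgeR adjusted p = 0.0555). In P2 the transcripts of Saa1 and Saa2 made up 1.54% of all counted read pairs, beside 0.263% in O5 and at most 0.00954% in an Adult mouse.

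The pair is close in sequence, and 13.2% of the 50-base stretches of the Saa1 reference transcript also occur in Saa2, and only uniquely aligned pairs were counted. How many pairs this removed was not measured, so the split between the genes is uncertain. With the counts of both genes summed, the log2 fold change was 3.73 between Old and Adult (edgeR adjusted p = 0.0722) and 5.95 between PDX and Adult (edgeR adjusted p = 0.0316). The ratio of Saa2 to Saa1 counts averaged 0.46 ± 0.14 for Adult, 0.58 ± 0.11 for Old and 0.68 ± 0.18 for PDX mice (SD over n = 5 mice each). It reached 0.998 in P2, the mouse with the most Saa1, O5 came next, and no other mouse exceeded 0.650, the ratio in O2.

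Saa3 (ENSMUSG00000040026), at chr7:46711998-46715700 on the minus strand, was the least abundant of the family. Its level was 3.60, 3.49, 5.24, 2.74 and 2.73 CPM in A1 to A5, 13.8, 38.8, 12.8, 12.5 and 59.9 CPM in O1 to O5, and 37.0, 24.6, 20.6, 15.5 and 15.9 CPM in P1 to P5. Every mouse of 22 months lay above every Adult mouse, and O2 and O5 were the highest of the Old mice. Saa3 rose between Old and Adult by a log2 fold change of 2.96 (SE 0.43, edgeR adjusted p = 0.00572) and between PDX and Adult by 2.68 (SE 0.43, edgeR adjusted p = 0.00661). Without O2 and O5 the first was 1.89 (edgeR adjusted p = 0.00254). Saa3 passed the threshold in both comparisons under all 25 alternatives.

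Saa4 (ENSMUSG00000040017), at chr7:46727998-46732603 on the minus strand, encodes the constitutive serum amyloid A, which responds little in inflammation. Its level was 189, 228, 262, 229.7 and 204 CPM in A1 to A5, 185, 158, 212, 303 and 27.9 CPM in O1 to O5, and 516, 923, 188, 252 and 271 CPM in P1 to P5. O5, the Old mouse with the most Saa1, Saa2 and Saa3, had the least Saa4 of all 15 mice, and P2 had the most. The log2 fold change was -0.33 (SE 0.49, edgeR adjusted p = 0.704) between Old and Adult and 0.95 (SE 0.49, edgeR adjusted p = 0.293) between PDX and Adult. Between PDX and Old it was 1.28 (SE 0.49), with an unadjusted edgeR p of 0.0222 that became 0.796 after adjustment, and it was 0.52 without O5 and P2.

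The upstream sequences of the Saa genes are shown because these neighbours differed in their values across mice. They are the bases before the transcript start as RefSeq gives it on GRCm38.p6, written 5′ to 3′ in the direction of the gene and ending before any annotated exon, at chr7:46742981-46743230 for Saa1 (minus strand), chr7:46751583-46751789 for Saa2 (plus strand), chr7:46715701-46715926 for Saa3 (minus strand) and chr7:46732604-46732853 for Saa4 (minus strand). Capitals mark matches to TTGCNNAA on either strand, a pattern for C/EBP factors.
Saa1: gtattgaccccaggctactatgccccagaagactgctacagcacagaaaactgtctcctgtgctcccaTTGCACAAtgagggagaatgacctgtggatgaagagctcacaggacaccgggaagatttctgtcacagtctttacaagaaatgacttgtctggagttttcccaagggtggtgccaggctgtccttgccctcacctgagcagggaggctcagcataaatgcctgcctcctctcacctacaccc
Saa2: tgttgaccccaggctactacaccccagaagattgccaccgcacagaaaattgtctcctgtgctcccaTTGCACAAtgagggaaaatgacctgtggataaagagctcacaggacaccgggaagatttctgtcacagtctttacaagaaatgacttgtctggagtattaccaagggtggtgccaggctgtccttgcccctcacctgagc
Saa3: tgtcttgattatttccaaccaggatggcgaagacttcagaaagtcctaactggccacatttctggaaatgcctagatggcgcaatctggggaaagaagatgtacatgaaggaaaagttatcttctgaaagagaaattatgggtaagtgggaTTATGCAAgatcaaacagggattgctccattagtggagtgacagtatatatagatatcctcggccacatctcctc
Saa4: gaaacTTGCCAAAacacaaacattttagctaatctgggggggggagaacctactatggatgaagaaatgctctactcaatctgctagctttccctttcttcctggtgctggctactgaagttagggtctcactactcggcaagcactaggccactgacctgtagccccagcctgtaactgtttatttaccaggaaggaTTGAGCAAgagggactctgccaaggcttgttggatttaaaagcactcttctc
The 250 bases upstream of Saa1 and Saa2 were identical at 94.8% of aligned positions, those of Saa1 and Saa3 at 50.2%, and those of Saa1 and Saa4 at 46% under the same global alignment.

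RefSeq upstream sequence was given for 8 of the 10 genes, and Hp and Orm1 were not among them. The C/EBP pattern occurred in the 250 bases upstream of 7 of these 8 genes, beside 9.56% of 32851 mouse windows of the same length. The 7 include Saa1 with Saa2 and Orm2 with Orm3, pairs alike in upstream sequence, so they are not 7 separate cases. They also include Lcn2, whose window begins within an annotated exon. The STAT pattern TTCNNNGAA occurred upstream of 1 gene, Apcs, as TTCTAGGAA, beside 7.02% of all windows, and a pattern of 10 letters for NF-kB sites upstream of none, beside 17.6% of all windows. Both strands were searched. In Saa1 the match TTGCACAA ended 175 bases before the start and in Saa2 the same letters ended 176 bases before it, while Saa3 held TTATGCAA 92 bases before the start, the same pattern on the other strand. The genes that passed the threshold and those that did not were not separated by the C/EBP pattern, since Saa4 and Orm3 held it too. A match describes the letters only.

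The orosomucoid genes lie side by side on chromosome 4 on the plus strand. Orm1 (ENSMUSG00000039196, chr4:63344560-63348163) gave most of the orosomucoid counts, followed by Orm2 (ENSMUSG00000061540, chr4:63362449-63365878) and Orm3 (ENSMUSG00000028359, chr4:63356162-63359511). The level of Orm1 was 535, 554, 559.5, 546 and 492 CPM in A1 to A5, 894, 726, 767, 1638 and 3516 CPM in O1 to O5, and 1556, 4149, 881, 1278 and 1133 CPM in P1 to P5. All mice of 22 months lay above all Adult mice, but O4, O5 and P2 lay far from the rest of their groups. Its log2 fold change between Old and Adult was 1.49 (SE 0.47, edgeR adjusted p = 0.0671), short of the threshold, and it was 0.90 without O5. It passed without P2 (edgeR adjusted p = 0.0451) or without O3 (edgeR adjusted p = 0.0405). Between PDX and Adult it was 1.74 (SE 0.47, edgeR adjusted p = 0.0676), and Orm1 passed the threshold there without O5 (edgeR adjusted p = 0.0132) or without O2 (edgeR adjusted p = 0.0253).

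The level of Orm2 was 32.9, 21.0, 38.8, 40.7 and 22.0 CPM in A1 to A5, 67.4, 97.8, 56.2, 297 and 745 CPM in O1 to O5, and 131, 1062, 97.5, 153 and 199 CPM in P1 to P5. Every mouse of 22 months lay above every Adult mouse. Orm2 rose between Old and Adult by a log2 fold change of 3.02 (SE 0.75, edgeR adjusted p = 0.0403) and between PDX and Adult by 3.40 (SE 0.75, edgeR adjusted p = 0.0399). The call between Old and Adult was lost without O5, with a log2 fold change of 2.06 and an edgeR adjusted p of 0.0620, and the call between PDX and Adult was lost without P2, with a log2 fold change of 2.22 and an edgeR adjusted p of 0.121. Both calls were also lost without any one of the 5 Adult mice, where the edgeR adjusted p lay between 0.0852 and 0.0993 for Old and between 0.0909 and 0.109 for PDX. In those fits the rises over all genes were 98 to 169 for Old, beside 726 with all mice. For PDX they were 112 to 139, beside 257 with all mice. Leaving out P4 also ended the call for Old (edgeR adjusted p = 0.0522), and leaving out P1, P4 or O4 that for PDX (edgeR adjusted p = 0.0580, 0.0567 and 0.0513).

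The level of Orm3 was 8.85, 15.0, 19.7, 17.2 and 12.1 CPM in A1 to A5, 7.01, 14.25, 17.9, 29.2 and 64.8 CPM in O1 to O5, and 51.9, 89.5, 13.0, 30.2 and 32.1 CPM in P1 to P5. Only O4 and O5 among the Old mice lay above the Adult range, and O1 lay below it. The log2 fold change was 0.87 (SE 0.54, edgeR adjusted p = 0.309) between Old and Adult and 1.57 (SE 0.53, edgeR adjusted p = 0.127) between PDX and Adult. Without O5 the value between Old and Adult was 0.23, and Orm3 passed between PDX and Adult (edgeR adjusted p = 0.0428). The part of Orm2 in the orosomucoid counts was on average 5.29% ± 1.36 for Adult, 11.5% ± 4.74 for Old and 12.5% ± 4.93 for PDX mice (SD over n = 5 mice each), and the Old and Adult ranges overlapped at O3. The share of 50-base stretches that Orm1 had in common with Orm2 was 20.4%, so these shares are uncertain, and with the 3 genes summed the log2 fold change between Old and Adult was 1.62 (edgeR adjusted p = 0.0659).

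The upstream sequences of Orm2 and Orm3 are shown as the pair in which one gene passed the threshold and the other did not. They are from RefSeq on GRCm38.p6 at chr4:63362199-63362448 and chr4:63355908-63356157, both on the plus strand, with the C/EBP pattern in capitals.
Orm2: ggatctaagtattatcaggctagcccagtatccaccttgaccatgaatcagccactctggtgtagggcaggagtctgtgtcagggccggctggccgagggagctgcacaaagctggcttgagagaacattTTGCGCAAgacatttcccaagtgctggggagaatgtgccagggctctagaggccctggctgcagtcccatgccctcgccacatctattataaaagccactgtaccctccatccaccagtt
Orm3: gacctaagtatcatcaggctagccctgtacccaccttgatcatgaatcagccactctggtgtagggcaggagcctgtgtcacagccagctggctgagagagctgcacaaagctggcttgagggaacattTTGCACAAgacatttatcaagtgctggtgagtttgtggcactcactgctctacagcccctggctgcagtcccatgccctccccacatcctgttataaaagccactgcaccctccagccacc
The aligned sequences were identical at 85.9% of positions, and the capital letters read TTGCGCAA in Orm2, 113 bases before the start, and TTGCACAA in Orm3, 114 bases before it.

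Lcn2 (ENSMUSG00000026822), at chr2:32384633-32388252 on the minus strand, had the largest log2 fold change of the 10 genes between Old and Adult. Its level was 10.7, 18.5, 23.98, 16.8 and 5.74 CPM in A1 to A5, 131, 324, 97.4, 550.6 and 918.5 CPM in O1 to O5, and 488, 1201, 304, 305 and 202 CPM in P1 to P5. The lowest mouse of 22 months, O3, lay above the highest Adult mouse, A3. Lcn2 rose between Old and Adult by a log2 fold change of 4.74 (SE 0.61, edgeR adjusted p = 0.00466), a 26.7-fold difference, and between PDX and Adult by 5.05 (SE 0.61, edgeR adjusted p = 0.00199). Without O5 the log2 fold change between Old and Adult was 4.19 (edgeR adjusted p = 0.00413), without P2 that between PDX and Adult was 4.42 (edgeR adjusted p = 0.00474), and Lcn2 passed the threshold in both comparisons under all 25 alternatives.

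Hp (ENSMUSG00000031722), at chr8:109575128-109579172 on the minus strand, was the most abundant of the 10 genes. Its level was 2364, 2635, 2782, 2348 and 2612 CPM in A1 to A5, 6188, 4944, 3908, 7769.9 and 15573 CPM in O1 to O5, and 9218, 15058, 6578, 7125 and 7276 CPM in P1 to P5. The Adult mice lay within a narrow range, all mice of 22 months lay above it, and O5 and P2 were the highest of their groups. Hp rose between Old and Adult by a log2 fold change of 1.59 (SE 0.34, edgeR adjusted p = 0.0231) and between PDX and Adult by 1.83 (SE 0.34, edgeR adjusted p = 0.0125). Without O5 the first was 1.16 (edgeR adjusted p = 0.0182). Without any one Adult mouse the edgeR adjusted p between Old and Adult lay between 0.0570 and 0.0636, short of the threshold.

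Apcs (ENSMUSG00000026542), at chr1:172893961-172895041 on the minus strand, varied least among the older mice. Its level was 121, 143, 120.5, 93.1 and 144 CPM in A1 to A5, 377, 276, 217, 590.3 and 665 CPM in O1 to O5, and 539, 481, 253, 408 and 393 CPM in P1 to P5. The groups of 22 months did not overlap with the Adult group, and P2, the highest mouse for 7 of the 10 genes, was not the highest here. Apcs rose between Old and Adult by a log2 fold change of 1.77 (SE 0.29, edgeR adjusted p = 0.00811) and between PDX and Adult by 1.74 (SE 0.29, edgeR adjusted p = 0.00667), and it passed the threshold in both under all 25 alternatives.

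**Figure D2:**
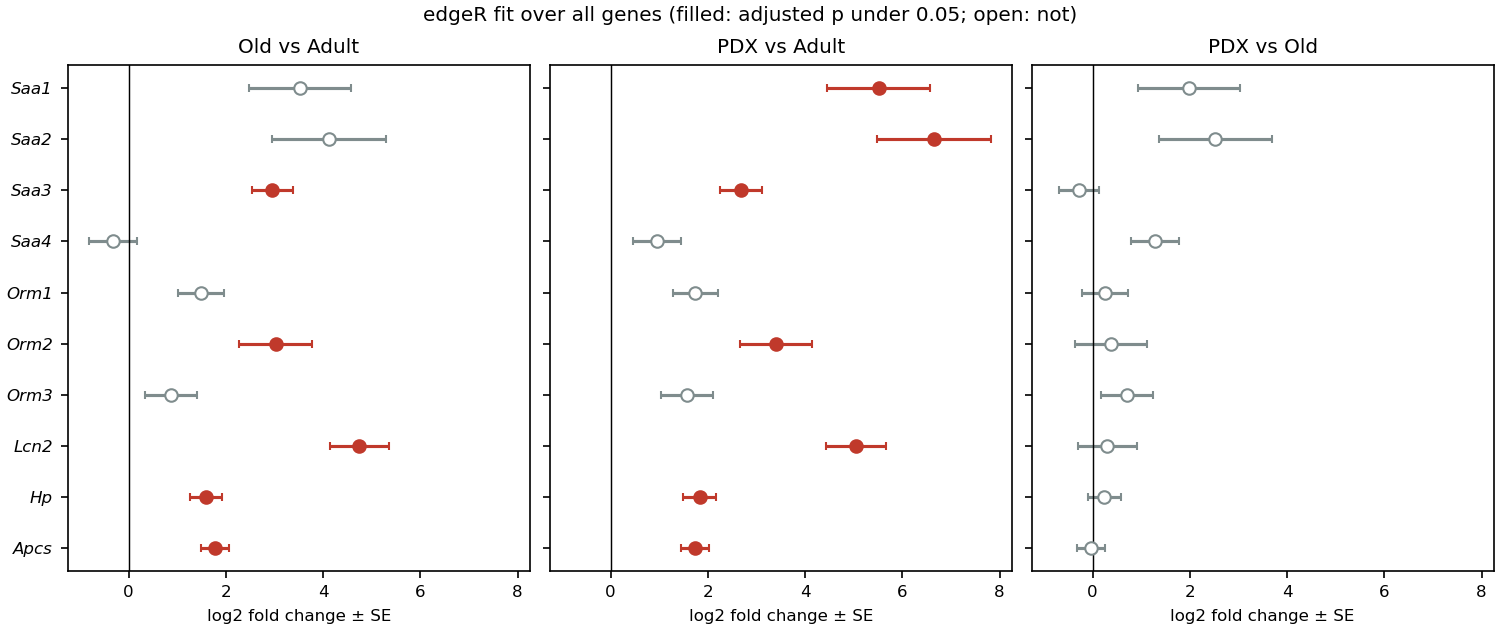
Log2 fold change of each gene on the horizontal axis with its SE as the bar, in the 3 comparisons of the groups, from edgeR's fit. Filled points passed an adjusted p of 0.05: 5 genes between Old and Adult, 7 between PDX and Adult and 0 between PDX and Old.

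Between PDX and Adult, 7 of the 10 genes rose past the threshold (Saa1, Saa2, Saa3, Orm2, Lcn2, Hp and Apcs) and 0 fell, against 1.63% of all genes that rose and 0.873% that fell. In 8 genes every PDX mouse lay above every Adult mouse, which held for 10.5% of all genes, and Saa4 and Orm3 were the exceptions. The median log2 fold change of the 10 genes was 2.25, beside -0.01 over all genes tested. The count of genes was 4 without P2 (Saa3, Lcn2, Hp and Apcs), 9 without O5, and 4 without any one of the Adult mice. Between Old and Adult it was 4 without O5, 4 without O2 and O5, 8 without P2, 8 without both O5 and P2, and 3 (Saa3, Lcn2 and Apcs) without any one of the Adult mice. Over all genes, the rises between PDX and Adult were 257 with all mice, 121 without P2 and 832 without O5. Without any one Adult mouse they were 112 to 139. Those between Old and Adult were 726 with all mice, 1311 without O5, 750 without O2 and O5 and 544 without P2. They were 1027 without both O5 and P2, and 98 to 169 without any one Adult mouse. These left-out fits tested 16026 to 16275 genes each, beside 15808 with all mice. The Adult mice serve both comparisons, so the counts are not independent.

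PDX was compared with Old to see whether treatment altered the levels in mice of the same age. None of the 10 genes passed an adjusted p of 0.05 or of 0.25, as for all genes tested (0% called), and 1 of the 10, Saa4, had an unadjusted edgeR p under 0.05, beside 5.21% of all genes. The log2 fold changes were 1.99 (SE 1.06, edgeR adjusted p = 0.796) for Saa1 and 2.53 (SE 1.17, edgeR adjusted p = 0.796) for Saa2. Both turned negative without P2, at -0.51 (SE 0.78) and -0.61 (SE 0.82). Without O5 they were larger, at 3.00 (SE 1.05, edgeR adjusted p = 0.999) and 3.76 (SE 1.16, edgeR adjusted p = 0.999). Of the 10 genes, 5 then had an unadjusted edgeR p under 0.05, Saa1, Saa2 and Saa4 among them, beside 602 of all 16027 genes tested. Without both O5 and P2 the log2 fold changes of Saa1 and Saa2 were 0.50 and 0.63. In that fit 0 of the 10 had an unadjusted edgeR p under 0.05, beside 342 of all 16026 genes tested. For Lcn2 the log2 fold change was 0.31, with an interval of 2 SE from -0.91 to 1.52. That interval ran from -0.44 to 0.91 for Hp and from -0.61 to 0.54 for Apcs. It lay above 0 for Saa2, from 0.19 to 4.86, and for Saa4, from 0.29 to 2.27, and it included 0 for the other 8 genes. The SE was computed apart from the test, and the unadjusted edgeR p of Saa2 was 0.0589. Intervals that include 0 do not show that the levels were alike.

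In every gene of the 10 the PDX and Old ranges overlapped, and among all genes every PDX mouse lay above every Old mouse in 0.145% and below in 0.196%. The ratio of the PDX to the Old median lay between 0.942, for Lcn2, and 1.79, for Orm3. The transcripts of the 10 genes together made up on average 0.349% ± 0.0201 of the counted read pairs for Adult, 1.16% ± 0.781 for Old and 1.57% ± 1.19 for PDX mice (SD over n = 5 mice each). The lowest mouse of 22 months, O3, reached 0.567%, above the highest Adult mouse with 0.381%. The largest shares were 3.67% in P2 and 2.51% in O5, and Hp alone accounted for 1.40% and 1.62% in those mice.

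**Figure D3:**
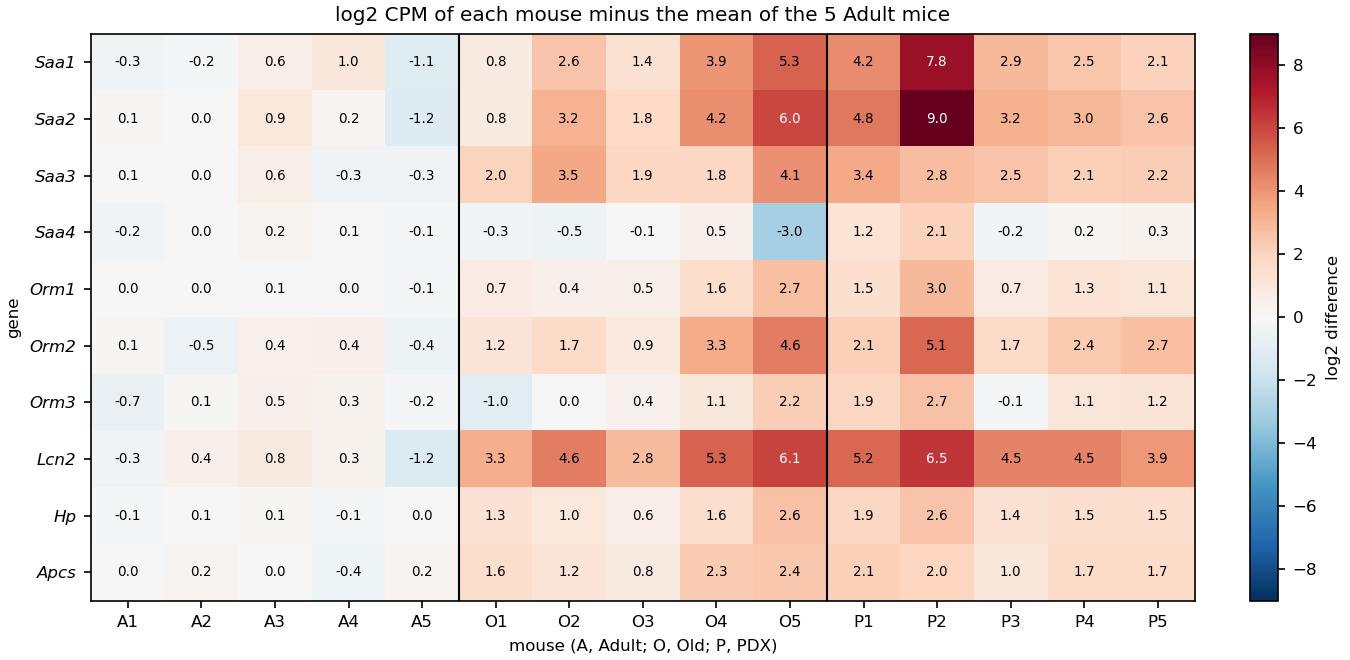
Log2 CPM of each gene (rows) in each mouse (columns) minus the mean of the 5 Adult mice, as numbers and colours. Over the 10 genes the median difference lay between 0.86 in O3 and 3.40 in O5 among the Old mice and between 1.54 in P3 and 2.88 in P2 among the PDX mice.

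The older mice differed among themselves in the 10 genes. The SD of log2 CPM within a group had a median over the 10 genes of 0.41 in the Adult group, 1.27 in the Old group and 0.95 in the PDX group, beside 0.20, 0.53 and 0.23 over all genes tested. The least variable gene in the Adult group was Orm1, with an SD of 0.07, and the most variable in the PDX group was Saa2, with an SD of 2.63. O5 was the highest Old mouse for 9 genes and P2 the highest PDX mouse for 8, and P1 was the highest PDX mouse for the other 2, Saa3 and Apcs. The lowest Old mice were O3 for 4 genes and O1 for 3, and the lowest PDX mouse was P3 for 6.

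Over the 10 mice of 22 months, the Pearson correlation of log2 CPM between pairs of the 10 genes had a median of 0.79 over 45 pairs and ran from -0.41 to 0.997, as a description across mice that share libraries, with O5 and P2 far from the rest. For each member but Saa1, the gene outside the list whose log2 CPM was most like it over all 15 mice was taken from 12013 genes. It was Hpx, which encodes the heme carrier hemopexin, for Saa2, Orm2 and Hp, with Pearson correlations of 0.92, 0.95 and 0.98. It was Serpina3n for Orm1 at 0.96, Lrg1 for Apcs at 0.97 and C3 (complement component 3) for Orm3 at 0.88. For Saa3 it was Sult1e1, an estrogen sulfotransferase, at 0.96, for Lcn2 Isyna1, the synthase of inositol phosphate, at 0.95, and for Saa4 Abca3, a lipid transporter, at 0.95. The values describe likeness over 15 mice that include the difference between the ages, and no more.

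Levels between genes were compared per kilobase (kb) of merged exons. In the Adult group the order of the medians was Hp (1627 CPM per kb), Orm1 (705), Apcs (125), Saa4 (109), Orm2 (42.5), Orm3 (19.5), Saa1 (13.4), Saa2 (6.91), Lcn2 (6.39) and Saa3 (1.34). The ranges of the 5 mice overlapped between Apcs and Saa4, between Orm3 and Saa1, between Saa1 and Saa2 and between Saa2 and Lcn2. The genes were read in the same mice, so overlapping ranges do not show that neighbours were alike. Within the Adult mice the ratio of Saa2 to Saa1 counts lay between 0.245 and 0.589. In the Old group Hp (3853 CPM per kb), Orm1 (1154) and Apcs (388) again had the highest medians, Lcn2 stood at 124 CPM per kb, and Orm1 and Apcs were the only neighbours without overlap. In the PDX group the medians were 4530.5 for Hp, 1649 for Orm1 and 420.5 for Apcs. The annotation gives Saa1, Saa2, Saa3 and Lcn2 long alternative exons. With the length of the first listed transcript of each gene in place of merged exons, the Adult medians were 54.7 CPM per kb for Saa1, 28.7 for Saa2, 18.3 for Lcn2 and 6.28 for Saa3, and Saa1 then ranked above Orm2.

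The 22-month mice carry frailty labels, and 6 of them (O2, O3, O4, O5, P4 and P5) are labelled frail, 2 prefrail (P2 and P3) and 2 robust (O1 and P1). No gene of the 10 passed the threshold between frail mice and the rest in a fit with treatment as a term, and none of all genes tested did (0%), with 1.26% of genes at an unadjusted edgeR p under 0.05 and none of the 10 among them. DESeq2's Wald test called 9 genes of all in that comparison and none of the 10. Its unadjusted p-values were 0.0459 for Saa1 and 0.0274 for Saa2, both 0.9999 after adjustment, and 430 of 28570 genes had one under 0.05. In edgeR's fit the largest differences were those of Saa1, with a log2 fold change of -2.70 (SE 1.34), and Saa2, with -3.27 (SE 1.499), both with an edgeR adjusted p of 0.9995. Without P2, which is not labelled frail, they were -0.10 and 0.04. Across the alternatives the log2 fold changes ran from -4.07 to 2.26 for Saa1 and from -4.67 to 2.88 for Saa2, so their sign was not stable. The median of Saa1 was 219 CPM in the 6 frail mice (lowest 97.1, highest 1475) and 502 CPM in the other 4 (lowest 66.9, highest 8325). P2, the mouse with the highest values, is labelled prefrail with a frailty index of 0.19, and O5 is labelled frail with an index of 0.56, the highest of the 15 mice. O1, the robust Old mouse, had the lowest Saa1, Saa2 and Orm3 of the Old group, whereas the robust PDX mouse, P1, had the highest Saa3 and Apcs of its group.

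Other positive acute-phase genes of the liver rose in part. Of 24 tested genes of 25 listed, 6 rose and 0 fell between Old and Adult, beside 4.59% and 2.04% of all genes. The median change of the list was 1.04 on the log2 scale. The largest change by size was short of the threshold, that of Hamp2, with a log2 fold change of -3.50 (SE 1.08, edgeR adjusted p = 0.0775). Hamp2 is named here after its values were seen. The largest rises were those of Cd14, the lipopolysaccharide co-receptor, with a log2 fold change of 3.14 (SE 0.73, edgeR adjusted p = 0.0318), Lrg1, a leucine-rich glycoprotein of plasma, with 2.28 (SE 0.35, edgeR adjusted p = 0.00698), and Hpx, with 1.70 (SE 0.41, edgeR adjusted p = 0.0317). The level of Cd14 was 5.78, 28.9, 6.67, 6.54 and 127.6 CPM in O1 to O5, with O5 and O2 far above the rest, beside 2.96 to 4.38 CPM in the Adult group. Its log2 fold change was 1.59 without O5 (edgeR adjusted p = 0.0411) and 0.68 without O2 and O5 (edgeR adjusted p = 0.181), and that of Hpx was 1.12 without O2 and O5 (edgeR adjusted p = 0.0502). The count was 6 without O2 and O5. Between PDX and Adult 6 genes rose and 0 fell, without O2 and O5 18 rose and 1 fell, and without P2 4 rose and 0 fell. Over all genes, 257 of 15808 rose between PDX and Adult and 138 fell. Without O2 and O5, 2312 of 16275 rose there and 1642 fell, and 750 rose between Old and Adult. Of the 11 negative acute-phase genes, such as those of albumin and transthyretin, which also stand among the hepatocyte markers, 0 passed the threshold between Old and Adult, at a median of 0.08 on the log2 scale, and without O2 and O5 5 rose and 0 fell.

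Of 23 tested genes of 25 cytokines, receptors and transcription factors of the response, 5 rose and 1 fell between Old and Adult. Over all genes, 4.59% rose and 2.04% fell there, and between PDX and Adult 1.63% rose and 0.873% fell. Socs3, the feedback inhibitor of STAT3 signaling, rose with a log2 fold change of 1.40 (SE 0.35, edgeR adjusted p = 0.0336), Osmr, the oncostatin M receptor, with 1.26 (SE 0.29, edgeR adjusted p = 0.0287), and Nfkbiz, a nuclear modulator of NF-kB that cytokines induce, with 1.22 (SE 0.25, edgeR adjusted p = 0.0178). Il1rap, the co-receptor of interleukin-1, fell by 1.64 on the log2 scale (SE 0.37, edgeR adjusted p = 0.0275). Stat3 had a log2 fold change of 0.99 (SE 0.29, edgeR adjusted p = 0.0570), Cebpd of 1.52 (SE 0.43, edgeR adjusted p = 0.0501) and Cebpb of 0.61 (SE 0.32, edgeR adjusted p = 0.224), all short of the threshold. Il6 was too low to be tested, with at most 18 counts in any mouse. Without O2 and O5, 1 gene of this list rose and 0 fell, and Socs3, Osmr and Il1rap were then short of the threshold, at log2 fold changes of 1.20, 0.74 and -1.21 (edgeR adjusted p = 0.108, 0.0685 and 0.0656). Socs3 was short of it without O2 alone as well (edgeR adjusted p = 0.0540). Between PDX and Adult 4 rose and 1 fell, without O2 and O5 9 rose and 2 fell, and without P2 2 rose and 0 fell. Socs3 was among the 4 with a log2 fold change of 1.76 (SE 0.35, edgeR adjusted p = 0.0172). Without O2 and O5, 2312 of all 16275 genes rose between PDX and Adult and 1642 fell.

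Of 9 tested genes for receptors and clearance of these proteins, such as the hemoglobin scavenger receptor Cd163, 0 passed the threshold between Old and Adult or between PDX and Adult. Without O2 and O5, 1 fell between Old and Adult, and 4 rose and 1 fell between PDX and Adult. Over all genes, 2312 of 16275 rose and 1642 fell between PDX and Adult in that fit.

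**Figure D4:**
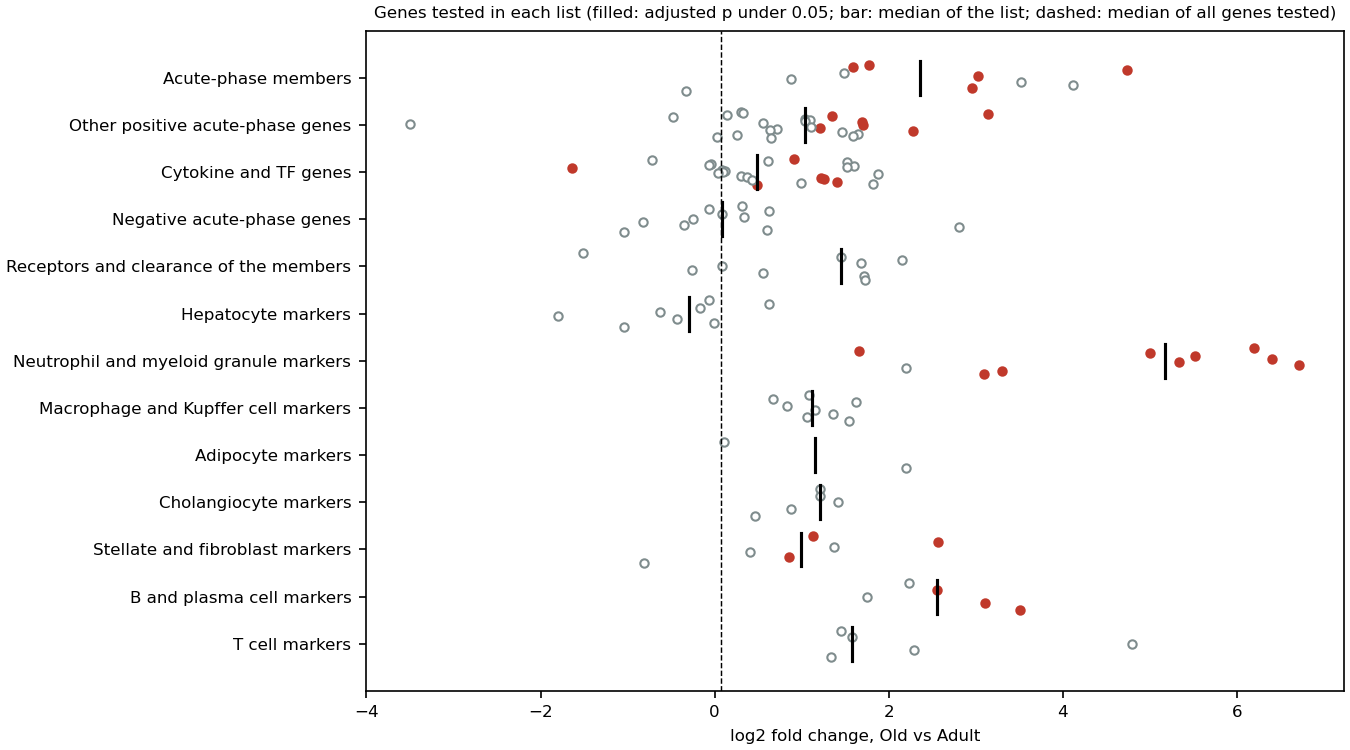
Log2 fold change between Old and Adult on the horizontal axis for each tested gene of the 10 acute-phase genes, of 4 related lists and of 8 lists of cell type markers, with the median of each list as a bar and the median of all genes tested as a dashed line. Filled points passed an adjusted p of 0.05, which held for 5 of 10 acute-phase genes and for 9 of 10 tested neutrophil and myeloid granule markers.

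Markers of other cells moved with age as well. Of 10 tested neutrophil and myeloid granule markers of 11 listed, 9 rose between Old and Adult and 3 between PDX and Adult. Over all genes, 4.59% and 1.63% rose in these comparisons. All 10 markers had an unadjusted edgeR p under 0.05 in both, so the lower count for PDX does not show a smaller rise. The largest rises were those of Prtn3, Mpo and Camp, which encode granule proteins, with log2 fold changes of 6.72 (SE 0.94), 6.41 (SE 1.40) and 6.20 (SE 1.70) and edgeR adjusted p-values of 0.00371, 0.0164 and 0.0283. Mpo and Camp had at most 3 counts in any Adult mouse, so their fitted changes depend on the prior count, and without O2 they were 4.44 (edgeR adjusted p = 0.0174) and 3.68 (edgeR adjusted p = 0.0548). The summed level of the 11 markers ran from 2.90 to 7.66 CPM in the Adult group, from 21.1 to 271 CPM in the Old group and from 44.6 to 203 CPM in the PDX group. The highest Old mouse for this sum was O2, with 271 CPM, beside 51.2 CPM in O5, the highest Old mouse for 9 of the 10 acute-phase genes, while P2 was the highest PDX mouse for both. Without O2 and O5, 3 of 10 granule markers rose between Old and Adult and 10 of 10 between PDX and Adult, and without P2 the counts were 8 and 2. Over all 16275 genes tested without O2 and O5, 750 rose between Old and Adult and 2312 between PDX and Adult. Of the 16078 tested without P2, 544 and 121 rose. The log2 fold change of Lcn2 between Old and Adult was 4.12 without O2 and O5 (edgeR adjusted p = 0.011). The part of granulocytes in the level of Lcn2 was not tested.

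Of 8 macrophage and Kupffer cell markers, 0 passed the threshold between Old and Adult or between PDX and Adult, without O2 and O5 6 rose between PDX and Adult, and their sum ran from 466 to 705 CPM in the Adult group, from 340.0 to 3402 CPM in the Old group and from 805 to 1685 CPM in the PDX group. The highest Old mouse was O2 and the lowest was O5, whereas O5 had the most Saa3 of the Old mice and O2 the next most. Of 5 adipocyte markers, 2 passed the low-count filter and 0 the threshold, and Adipoq was at or below 1.00 CPM in every mouse. Their sum was highest in O5, at 18.7 CPM, beside 0.963 to 6.98 CPM in the other 14 mice, and 18.6 CPM of it came from Cidec, a lipid droplet protein named here after its values were seen. The part of adipocytes in the Saa3 level of O5 was not tested. Of B and plasma cell markers 3 of 5 rose between Old and Adult and 1 of 5 between PDX and Adult, of stellate cell and fibroblast markers 3 of 6 and 0 of 6, of T cell markers 0 of 5 in both, of cholangiocyte markers 0 of 5 and 1 of 5, and of hepatocyte markers 0 of 8 in both. Without O2 and O5 the rises in these 2 comparisons were 2 and 3 for B and plasma cells, 1 and 2 for stellate cells and fibroblasts (with 1 fall between PDX and Adult), 0 and 3 for T cells, 0 and 2 for cholangiocytes and 1 and 1 for hepatocytes (with 1 fall between PDX and Adult). Over all genes, the rises in these 2 comparisons were 4.59% and 1.63% with all mice, and 750 and 2312 of 16275 without O2 and O5. Mzb1, an endoplasmic reticulum protein of plasma cells, and Col1a1, a chain of type I collagen, had log2 fold changes of 3.51 (SE 0.67) and 2.56 (SE 0.61) between Old and Adult, with edgeR adjusted p-values of 0.0158 and 0.0322. Without O2 that of Mzb1 was 2.73 (edgeR adjusted p = 0.0218) and Col1a1 was short of the threshold (edgeR adjusted p = 0.0527). Without O5 the log2 fold change of Col1a1 was 1.73 (edgeR adjusted p = 0.0445). Lrat, also of the stellate cell and fibroblast list, changed opposite to Col1a1 and is named here after its values were seen. Its log2 fold change between Old and Adult was -0.81 (SE 0.28, edgeR adjusted p = 0.0818), short of the threshold. The part of these cells in the acute-phase values was not tested.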

How the data were processed

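Liver poly(A) RNA was sequenced from 15 mice with the NEBNext Ultra Directional kit. The authors aligned read pairs to mm10 with STAR 2.6.0c, counted unique proper pairs on the same strand of non-mitochondrial Ensembl genes with featureCounts (Subread 1.6.2), and deposited these counts without normalization. They also deposited variance-stabilized values on a log2 scale, made with DESeq2 1.23.10. Because multiply aligned pairs were dropped, near-identical genes lose counts.

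Symbols came from GENCODE M21 (GRCm38), for 55104 of 55450 IDs. Genes were kept by filterByExpr with the groups (count of at least 10, total of at least 15). edgeR 4.0.16 in R 4.3.3 fitted a robust quasi-likelihood model with TMM factors to all 15 mice, 1 coefficient per group. Frailty was tested in the 10 mice of 22 months with treatment as a term. Log2 CPM used a prior count of 2. The SE is that of the fitted log2 fold change, computed from the fit's weights and dispersions and not by edgeR's test. An interval of 2 SE and the p-value of the test can therefore differ. On simulated data for Old against Adult, with 15808 genes, 156 of 200 genes changed by 2 log2 units were recovered among 161 calls. With none changed, 0 were called. In the measured data the median SD of log2 CPM over all genes was 0.20 for Adult, 0.53 for Old and 0.23 for PDX mice. How the calls behave under such unequal spread was not tested.

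Alternatives were DESeq2 1.42.0, limma 3.58.1 on the deposited log2-scale values, RLE factors, no filter, each mouse left out, O2 and O5 left out, fits of 2 groups, a replicate block, and paralogs summed. For frailty, a fit without the treatment term and a fit with prefrail mice counted as frail were also run. A fit without robust estimation, one without O5 and P2, and levels per first transcript were added after the data were seen. DESeq2 gave no p-value for Saa1 and Saa2 between Old and Adult, between PDX and Adult or between PDX and Old, and these stayed missing. The p-values cover the spread between mice. Named genes were the 10 members, up to 3 largest rises and 3 largest falls past the threshold per list, Il6, Stat3, Socs3, Cebpb and Cebpd, and the gene most alike to each member (mean log2 CPM of at least 1), which for Saa1 is not reported here. The members and lists were chosen with earlier results of these data known. Euthanasia batches are not given per mouse in the sources used here.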

Additional observations from a re-analysis of the deposited data

Results flagged for a closer look

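Among 30 sets of 5 mice (10 genes in 3 groups), 1 held a mouse far from the other 4 on the log2 CPM scale. For Saa4 in the Old group, the gap between O5 and its nearest neighbour was 0.728 of the whole range, above the critical value of 0.71, with 27.9 CPM in O5 and 158 to 303 CPM in the other Old mice. By chance about 5% of such sets exceed the critical value, so 1 in 30 is within what chance gives. The high values of P2 for Saa1 and Saa2 did not exceed the critical value on this scale.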

How the results depend on the processing

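Of 932 log2 fold changes of single genes under alternative settings, over the 4 comparisons, 864 stayed on the same side of the threshold. Of the rest, 48 lost it and 20 gained it, and 0 called changes turned. All losses and gains fell between Old and Adult and between PDX and Adult. The other comparisons had 0 calls to lose and add to the values that stayed. Saa3, Lcn2 and Apcs kept their calls between Old and Adult and between PDX and Adult under all alternatives. The number of genes that rose between Old and Adult was 5, and it was 3 in a fit of the 2 groups only and 8 without O5 and P2. Leaving out 1 mouse gave from 3 to 8. Between PDX and Adult it was 7, and it was 4 with no low-count filter. Leaving out 1 mouse gave from 4 to 9. The cause of these shifts was not tested. The replicate block gave 3 genes between Old and Adult and 4 between PDX and Adult, and 161 and 205 rises over all genes. Mice of the same number are different animals, and their deviations from the group means correlated at -0.17 on average over 5 pairs of Old and Adult, 0.09 of PDX and Old and 0.03 of PDX and Adult. Mice of unlike number gave 0.04, -0.02 and -0.01 over 20 pairs each. Whether mice of the same number shared a batch was not tested. Between PDX and Old and between frail mice and the rest, 0 of the 10 genes passed under any alternative. Over all genes, the rises and falls between Old and Adult were 726 and 322, beside 1889 and 752 with DESeq2, 316 and 316 with limma, 77 and 20 in a fit of the 2 groups and 351 and 115 with no low-count filter. Those between PDX and Adult were 257 and 138, beside 860 and 540 with DESeq2, 2425 and 2056 in a fit of the 2 groups and 2312 and 1642 without O2 and O5. Between PDX and Old edgeR called 0 genes, with 824 at an unadjusted p under 0.05, and DESeq2 called 1.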
